A study of Mus musculus with 6 samples.

Results

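Potassium channel genes were examined in messenger RNA of the aorta from mice without Mymsl, a gene for a long noncoding RNA (genotype label Mymsl KO), and from wild-type mice (Mymsl WT). Members were all rows of the deposited count table whose symbol is Kcn followed by letters and a number, together with Abcc8 and Abcc9, which encode the sulfonylurea receptor subunits. This gave 94 of 53735 rows: 5 of the BK channel, 4 of the KATP channel, 40 voltage-gated alpha subunits, 11 voltage-gated auxiliary subunits, 13 other inward rectifiers, 14 tandem-pore (K2P) channels and 7 other calcium- or sodium-activated channels. Each genotype had 3 libraries, made per the labels from smooth muscle cells of the aortic media, purified before RNA extraction. The labels give no age, sex, strain or treatment, do not say how or in which cells Mymsl was removed, and do not say whether a library came from a single mouse, so a p-value reflects only how far these libraries spread, which may be technical.

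Potassium channels set the membrane potential of arterial smooth muscle: when they open, potassium leaves the cell, the membrane hyperpolarizes, voltage-gated calcium channels close and the muscle relaxes. BK channels open on depolarization and on local calcium release, KATP channels open when they are phosphorylated by protein kinase A or when cellular ATP is low, and voltage-gated channels open on depolarization. A KATP channel of vascular smooth muscle is built from the pore subunit Kir6.1 (Kcnj8) and the sulfonylurea receptor SUR2 (Abcc9), while a BK channel combines the pore-forming alpha subunit (Kcnma1) with the beta1 subunit (Kcnmb1), which raises its calcium sensitivity.

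The genes of the KATP pair, which the results below turn on, lie next to each other on the minus strand of chromosome 6 (GRCm38). Kcnj8 spans chr6:142564837-142571614 and Abcc9 chr6:142587862-142702315, with 16247 bases between them. The stretches before their start sites are shown because both genes had lower values in every KO library, and that of Kcnmb1 because it was the most abundant member and did not separate the groups. Sequences are RefSeq's for GRCm38.p6, run 5′ to 3′ on the gene's strand, and stop at the RefSeq start site or at the first base of an annotated exon (chr6:142571615-142571864, minus strand, for Kcnj8; chr6:142702316-142702524, minus strand, for Abcc9; chr11:33962763-33963012, plus strand, for Kcnmb1). Capitals mark the GC box, GGGCGG on either strand.
Kcnj8: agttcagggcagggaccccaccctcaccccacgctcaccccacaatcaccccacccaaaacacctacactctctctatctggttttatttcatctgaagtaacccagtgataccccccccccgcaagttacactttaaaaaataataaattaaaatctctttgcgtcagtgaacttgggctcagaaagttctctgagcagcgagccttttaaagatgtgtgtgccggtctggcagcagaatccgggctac
Abcc9: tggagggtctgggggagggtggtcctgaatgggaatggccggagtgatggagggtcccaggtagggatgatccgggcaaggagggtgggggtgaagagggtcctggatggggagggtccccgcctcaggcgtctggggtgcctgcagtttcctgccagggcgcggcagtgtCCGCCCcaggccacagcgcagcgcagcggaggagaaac
Kcnmb1: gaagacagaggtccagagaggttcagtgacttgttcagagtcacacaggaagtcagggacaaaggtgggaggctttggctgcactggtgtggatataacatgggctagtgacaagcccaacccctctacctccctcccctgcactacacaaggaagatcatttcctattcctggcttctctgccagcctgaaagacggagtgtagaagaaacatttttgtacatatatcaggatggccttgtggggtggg
The Abcc9 stretch held 1 GC box, and those of Kcnj8 and Kcnmb1 held none. That box started 79 bases before the RefSeq start site. The printed Abcc9 stretch stops sooner, at an annotated exon, while its window of 250 bases runs on to chr6:142702275. The box therefore lies nearer to the printed end than to the RefSeq start site. In windows of 250 bases before the start, the GC content was 66.8% for Abcc9, 49.2% for Kcnj8 and 50.8% for Kcnmb1, against a median of 52.4% over 32851 windows of all genes, and 32.7% of those windows held a GC box. No window of these 3 genes held a CArG box, the binding motif of serum response factor, which 1.47% of all windows held on either strand. The letters TATAAA were also absent from all 3, against 12.4% of all windows. A motif match is a description of the letters and not of binding. Of the 94 members, 68 had a window in the RefSeq table. The window of Kcnma1 begins within an annotated exon of the gene and Kcnab1 has 3 start sites, so neither was printed.

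Total counts lay between 20048216 and 25521123 per library, and no pair of replicates was alike within sampling noise (chi-square per gene between 14.0 and 65.0). The symbol Mymsl names none of the rows, and values under that symbol were not analysed here. The clone-named row RP23-57D10.3 held 273 to 378 counts per WT library, stood at 0 in every KO library, and was the only row of 14145 tested that edgeR called (0.00707% at an adjusted p under 0.05). Mitochondrially encoded genes held 5.66% to 9.02% of counts in WT and a larger share in every KO library, up to 18.9% in KO replicate 1. The 8 smooth muscle markers fixed for this work summed to between 48818 and 52207 CPM in WT and to 40232, 54217 and 44028 CPM in KO replicates 1, 2 and 3, with 7 of 8 below 0 in log2 fold change, where CPM is the count scaled to library size with TMM normalization. Summed endothelial markers lay between 378 and 499 CPM in WT and between 430 and 736 in KO, and summed adventitial fibroblast markers between 2552 and 3568 CPM in WT and between 2387 and 4343 in KO. In bulk RNA, fewer cells of a type and less RNA per cell cannot be told apart.

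Of the 94 members, 38 passed the filter on low counts and were tested, 15 had 0 counts in all 6 libraries, and the other 41 had between 1 and 70 counts summed over the 6 libraries. No tested member passed an adjusted p of 0.05 in edgeR's quasi-likelihood test, where the smallest was 0.264, for Abcc9 and Kcnma1. An unadjusted p under 0.05 was reached by 5 of 38 members (13.2%): Abcc9, Kcnma1, Kcnab1 and Kcnj8 with lower values in KO and Kcns3 with higher values. Of all tested rows 14.6% reached it. The members' share was 25.6% without KO replicate 2 (16.1% of all rows), 22.5% without KO replicate 3 (13.0%) and 17.7% without the filter on low counts (10.32%). The genotypes were fully separated, with no overlap of libraries, for 5 of 38 members (13.2%), each lower in KO (Abcc9, Kcnj8, Kcnma1, Kcnab1 and Kcnk6), against 21.8% of all rows in either direction and 11.3% lower in KO. The median log2 fold change over the tested members was 0.075, against 0.012 over all tested rows, but it was -0.0071 without KO replicate 3 and -0.12 over the 28 members with a mean count of at least 50. By sign, 16 members (42.1%) lay below 0, against 47.5% of all rows. DESeq2 gave an adjusted p to 15 members and called 1 of them, Abcc9 (adjusted p = 0.0201), where 2.35% of the 8467 rows with an adjusted p were called.

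**Figure D1:**
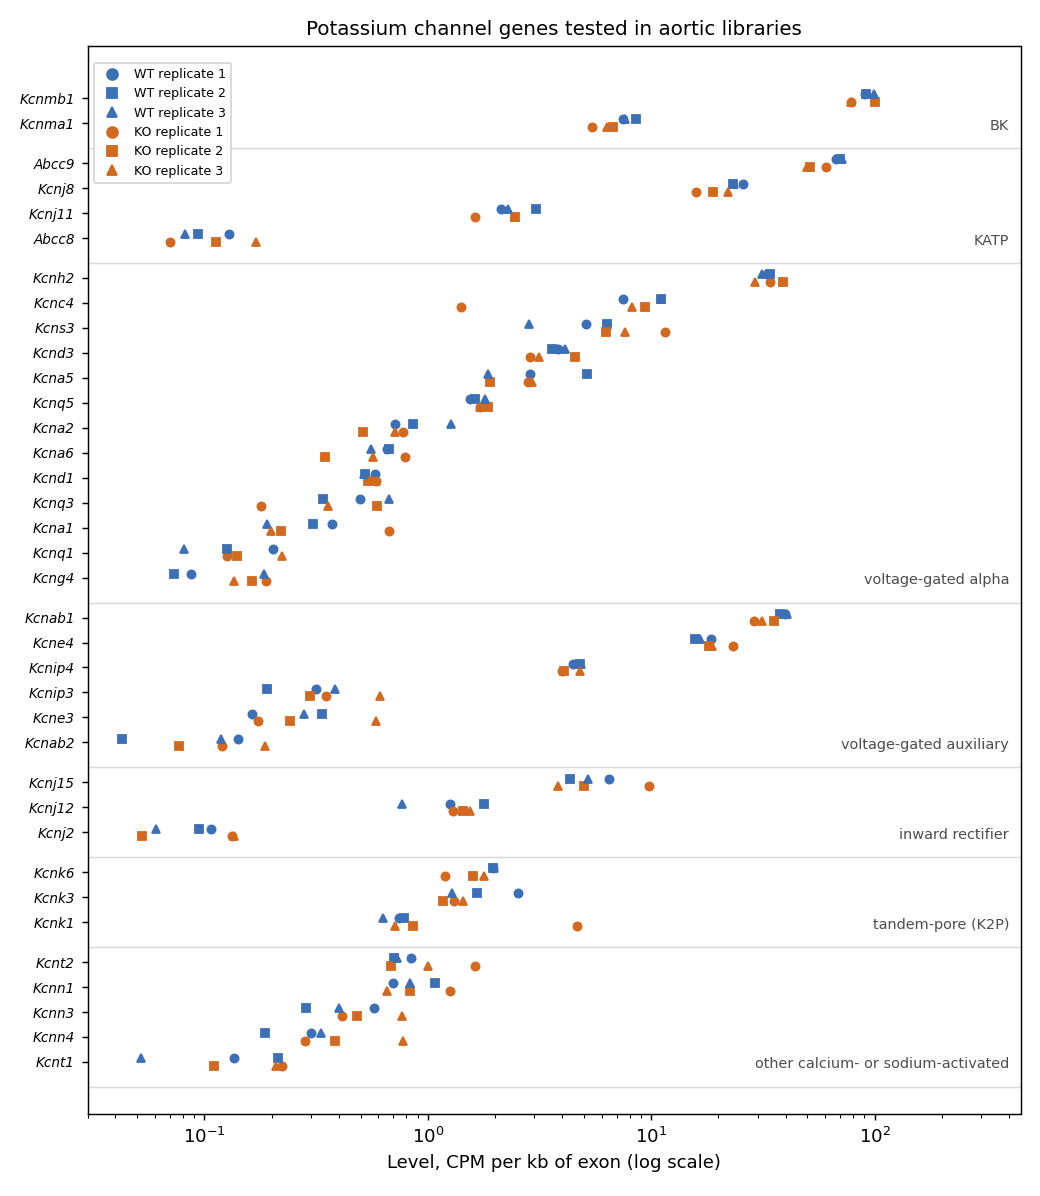
Level of 36 of the 38 tested potassium channel genes in CPM per kb of exon (log axis), with WT libraries in blue, KO libraries in orange and a symbol for each replicate. Kcnmb1 and Abcc9 had the highest levels, and the KO points of Abcc9, Kcnj8, Kcnma1, Kcnab1 and Kcnk6 all lie left of the WT points.

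The levels per length ordered the aortic repertoire. In CPM per kb of exon, Kcnmb1 stood first at 93.8 ± 4.76 in WT (SD, n = 3), followed by Abcc9 at 69.4 ± 2.09 and Kcnab1, the cytoplasmic beta1 subunit of Shaker-type voltage-gated channels, at 39.3 ± 1.32. Kcnh2, the pore subunit of the ERG channel that carries the rapid delayed rectifier current in the heart, followed at 32.8 ± 1.28, and Kcnj8 at 24.2 ± 1.40. Kcne4, a single-span auxiliary subunit, had 17.0 ± 1.47, and Kcnma1 had 7.91 ± 0.592. Its annotated exons sum to 16976 bases, more than any single transcript holds, which lowers its level per kb: by the longest transcript the mean over 6 libraries was 9.89 in place of 7.05. By that length Kcnab1 and Abcc9 exchanged places.

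Summed over members, the KATP class separated the genotypes at the level of RNA per kb. Its 4 genes summed to 95.2, 96.1 and 97.2 CPM per kb in WT replicates 1, 2 and 3 and to 78.4, 72.9 and 74.4 in KO replicates 1, 2 and 3. No test was made of these sums. All 3 KO sums lay below all WT sums, and Abcc9 and Kcnj8 made up most of each sum. The sum over all 94 members, which includes the KATP genes, separated the genotypes as well. It was 350, 352 and 358 CPM per kb in WT and 318, 341 and 305 in KO replicates 1, 2 and 3. The KATP share of the RNA of all 94 members was 27.2% ± 0.091 in WT and 23.5% ± 1.82 in KO (SD, n = 3 each). BK genes summed to 102 ± 4.67 CPM per kb in WT and 92.0 ± 12.9 in KO, and voltage-gated alpha subunits to 79.8 ± 2.89 and 80.1 ± 8.29. Sums of those classes overlapped between the genotypes. The auxiliary voltage-gated subunits summed to 61.8 ± 2.29 and 57.5 ± 1.02 CPM per kb, without overlap. Kcnab1 made up most of that sum and was lower in KO (log2 fold change -0.30). The lower sum was not shared across the class, where 4 of 6 tested members lay above 0. Inward rectifiers outside the KATP pair (6.77 ± 0.949 and 7.96 ± 3.23), tandem-pore channels (4.68 ± 0.714 and 5.16 ± 2.11) and the other calcium- or sodium-activated channels (2.47 ± 0.104 and 3.25 ± 0.682) were minor by this measure.

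**Figure D2:**
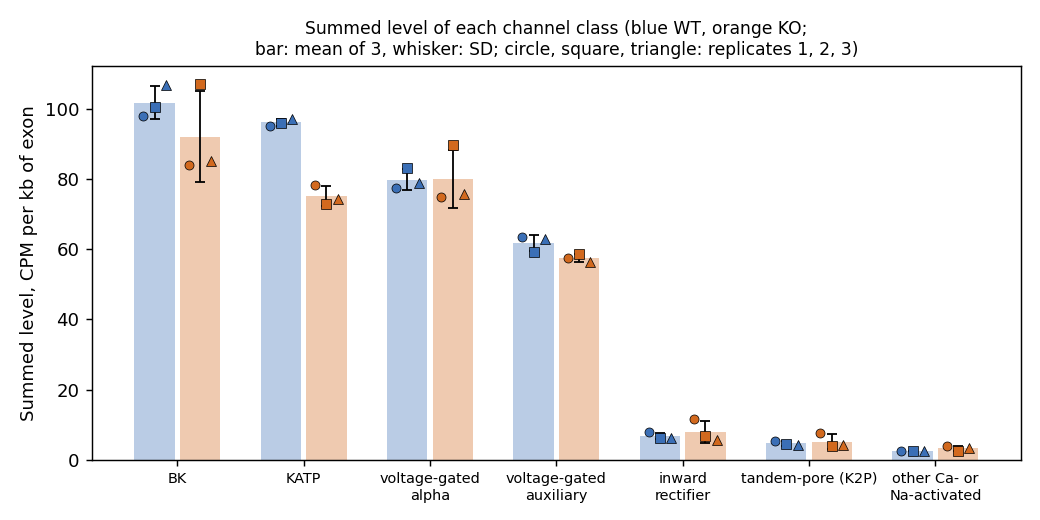
Summed level of each channel class in CPM per kb of exon; bars are means of 3 libraries, whiskers the SD, and symbols the replicates. The KATP sums lie between 95.2 and 97.2 in WT and between 72.9 and 78.4 in KO, while the BK and voltage-gated alpha sums overlap.

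Abcc9 encodes SUR2, the regulatory subunit that binds nucleotides, vasodilator KATP openers and sulfonylurea drugs. It read 562, 584 and 597 CPM in WT (in replicate order) and 509, 431 and 416 CPM in KO (same order). Every KO library lay below every WT library, with KO replicate 1 the nearest to WT. The log2 fold change was -0.36 ± 0.092 (SE), with an edgeR adjusted p of 0.264. Over the alternatives its log2 fold change lay between -0.46 and -0.31 and its adjusted p between 0.0201 in DESeq2 and 0.575 in edgeR without WT replicate 3.

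Kcnj8 encodes Kir6.1, the pore of the vascular KATP channel. Its values were 65.7, 59.2 and 60.0 CPM in WT (in replicate order) and 40.3, 48.1 and 56.4 CPM in KO (same order). The groups did not overlap, but the order within KO was opposite to that of Abcc9: KO replicate 3 lay close to WT for Kcnj8 and farthest from it for Abcc9. The log2 fold change was -0.35 ± 0.116 (adjusted p = 0.279 in edgeR). Read within each library, the ratio of Kcnj8 to Abcc9 per kb was 0.384, 0.333 and 0.330 in WT and 0.260, 0.367 and 0.446 in KO replicates 1, 2 and 3. The WT ratios lay inside the range of the KO ratios, and the difference of the mean log2 ratios was 0.003 (exact permutation p = 1, and 1 after adjustment over the 2 ratios tested). The sign of that difference depended on the libraries used, from -0.17 without KO replicate 3 to 0.22 without KO replicate 1.

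Pericytes and small-vessel mural cells also express this KATP pair. Whether the genes listed as their markers mark those cells in libraries of medial smooth muscle was not tested. Rgs5, the most abundant gene of that list, read 4856, 4734 and 4200 CPM in WT (in replicate order) and 335, 1666 and 3494 CPM in KO (same order). Within KO this is the order of Kcnj8 and the reverse of that of Abcc9. The 10 markers of that list summed to between 7251 and 7923 CPM in WT and to 2836, 4787 and 6040 CPM in KO. Without Rgs5, a sum added after seeing the data, the remaining 9 gave 3067, 2903 and 3051 CPM in WT and 2501, 3121 and 2546 CPM in KO, so the groups overlapped. The median log2 fold change of the list was -0.12, where 6 of 9 tested members lay below 0 and Higd1b had 1 to 9 counts per library. Posterior Hox genes, 16 genes that mark position along the body axis, summed to between 32.2 and 41.5 CPM in WT and to 8.87, 16.4 and 40.1 CPM in KO replicates 1, 2 and 3. Of the 7 that were tested 6 lay below 0, and Hoxb13 and Hoxd12 had 0 counts in every library. The part of these differences in the values of Kcnj8 and Abcc9 was not tested.

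The other KATP subunits were scarce. Kcnj11, which encodes the Kir6.2 pore of pancreatic and heart KATP channels, stood at 9.15 ± 1.80 CPM in WT against 8.02 ± 1.76 in KO (log2 fold change -0.19 ± 0.205, adjusted p = 0.687 in edgeR), and leaving out WT replicate 2 or KO replicate 1 gave fold changes of -0.017 and -0.019, while leaving out WT replicate 1 gave -0.29. Abcc8, which encodes SUR1, measured 0.818 ± 0.196 and 0.953 ± 0.410 CPM (0.23 ± 0.384). Both overlapped between the genotypes. Per kb, Kcnj8 exceeded Kcnj11 7.62 to 12.1 times in the WT libraries and 7.69 to 9.73 times in the KO libraries, and Abcc9 exceeded Abcc8 714 ± 176 times in WT and 539 ± 297 times in KO. The sign for Abcc8 turned without KO replicate 3 (-0.14).

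The BK pore subunit Kcnma1, at chr14:23289431-24014491 on the minus strand, read 127, 146 and 130 CPM in WT (in replicate order) and 92.6, 115 and 107 CPM in KO (same order). All KO values lay below all WT values, with KO replicate 1 the lowest. The log2 fold change was -0.35 ± 0.096 (adjusted p = 0.264 in edgeR, 0.0517 in DESeq2). An annotated noncoding gene on the other strand covers 5.99% of its exonic length.

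Kcnmb1, the smooth muscle beta1 subunit, lies at chr11:33963013-33973641 and did not separate the genotypes. It read 378, 385 and 416 CPM in WT (in replicate order) and 329, 419 and 330 CPM in KO (same order). KO replicate 2 was above every WT library and the other two KO libraries were below them. The log2 fold change was -0.13 ± 0.108 (adjusted p = 0.591 in edgeR), -0.07 without KO replicate 1 or 3, -0.08 without WT replicate 3 and -0.25 without KO replicate 2. KO replicate 2 also had the highest sum of smooth muscle markers. Per kb the ratio of Kcnmb1 to Kcnma1 was 12.04, 10.7 and 13.0 in WT and 14.4, 14.8 and 12.5 in KO replicates 1, 2 and 3, so 2 of 3 KO libraries exceeded all WT libraries. The difference of the mean log2 ratios was 0.22 (exact two-sided permutation p = 0.2, and 0.4 after adjustment over the 2 ratios tested), where 3 against 3 libraries give no p below 0.1. With the longest transcripts as lengths the ratio was 8.48 ± 0.821 in WT and 9.88 ± 0.882 in KO.

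The remaining BK beta subunits were at or near 0. Kcnmb4, the beta4 subunit of neurons, had 11 counts over the WT libraries and 5 over the KO libraries. Kcnmb2 had 1 count in 1 KO library, and Kcnmb3 had 0 counts in all 6.

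**Figure D3:**
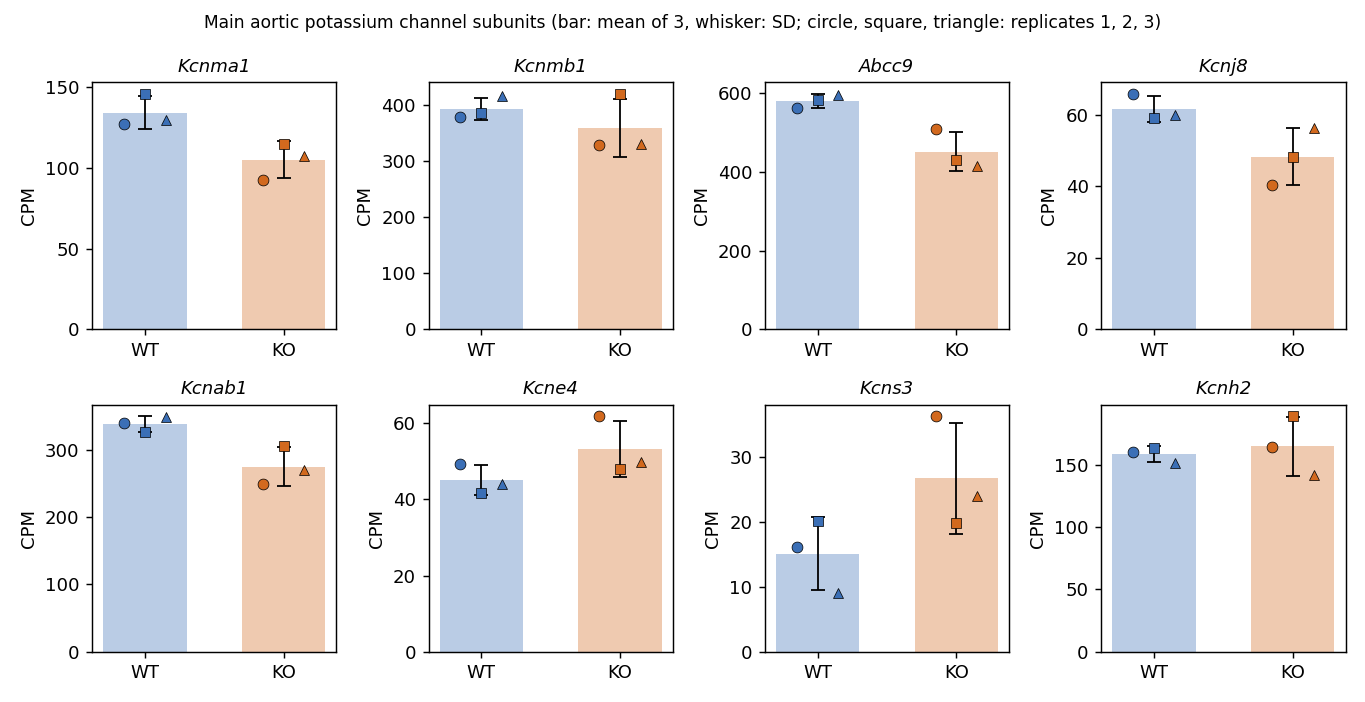
CPM of 8 abundant or named subunits in WT (blue) and KO (orange), with bars for the mean of 3 libraries, whiskers for the SD and symbols for replicates 1, 2 and 3. Kcnma1, Abcc9, Kcnj8 and Kcnab1 do not overlap between the genotypes, while Kcnmb1, Kcne4, Kcns3 and Kcnh2 do.

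Among the auxiliary subunits of voltage-gated channels, Kcnab1 read 340, 326 and 348 CPM in WT (in replicate order) and 248, 305 and 270 CPM in KO (same order). Every KO library lay below every WT library, and the log2 fold change was -0.30 ± 0.088 (adjusted p = 0.273 in edgeR, 0.0734 in DESeq2). Kcne4 had the opposite sign, with 49.4, 41.8 and 44.1 CPM in WT and 61.8, 48.1 and 49.9 in KO. WT replicate 1 exceeded KO replicate 2, so the groups overlapped (log2 fold change 0.24 ± 0.110, adjusted p = 0.361 in edgeR, and 0.12 without KO replicate 1). Kcnip4, which encodes a calcium-binding partner of Kv4 channels, measured 17.0 ± 0.769 and 15.5 ± 1.61 CPM (-0.13 ± 0.099, with -0.086 without KO replicate 1 and -0.22 without KO replicate 3). Kcnip3 (1.05 ± 0.350 and 1.48 ± 0.595 CPM), Kcne3 (0.461 ± 0.156 and 0.592 ± 0.391 CPM) and Kcnab2 (0.563 ± 0.288 and 0.713 ± 0.306 CPM) were close to the limit of the filter. Of the 11 auxiliary members 6 were tested, 4 above 0 and 2 below, and Kcne3 was below 0 without KO replicate 3 (-0.31).

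Of 40 voltage-gated alpha subunits, 15 were tested, with 8 above 0 and 7 below. Kcns3 encodes the silent Kv9.3 subunit, which forms no channel alone and modifies other pore subunits. It read 16.2, 20.1 and 9.03 CPM in WT (in replicate order) and 36.3, 19.9 and 24.0 CPM in KO (same order). KO replicate 2 lay just below WT replicate 2, and the log2 fold change was 0.82 ± 0.312 (unadjusted p = 0.0313, adjusted p = 0.308 in edgeR). Without KO replicate 1 it was 0.54.

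Kcnh2 had a difference between genotypes near 0. It measured 160, 164 and 152 CPM in WT and 165, 189 and 142 CPM in KO replicates 1, 2 and 3, so the KO values enclosed the WT values (log2 fold change 0.06 ± 0.104, adjusted p = 0.823 in edgeR). KO replicate 2 was the highest, and the sign turned without it (-0.05). Kcnd3, the Kv4.3 pore of transient outward currents, measured 36.8 ± 2.40 and 33.8 ± 8.73 CPM (-0.12 ± 0.166, and 0.0039 without KO replicate 1). Kcna5, the Kv1.5 pore of voltage-gated current in vascular muscle, measured 9.45 ± 4.88 and 7.29 ± 1.61 CPM (-0.37 ± 0.358), and its WT values spread from 5.30 to 14.8 CPM. Kcnq5, a KCNQ pore subunit, had the smallest standard error of this class, at 12.8 ± 0.975 and 13.6 ± 0.695 CPM (0.09 ± 0.097), and Kcna2, a Kv1 pore of nerve and vascular muscle, measured 11.3 ± 3.45 and 7.96 ± 1.63 CPM (-0.50 ± 0.242). Another 6 tested alpha subunits (Kcna6, Kcnd1, Kcnq3, Kcna1, Kcnq1 and Kcng4) had log2 fold changes between -0.41 and 0.49, each with overlapping groups. A noncoding gene on the other strand covers 39.6% of the exonic length of Kcna6.

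**Figure D4:**
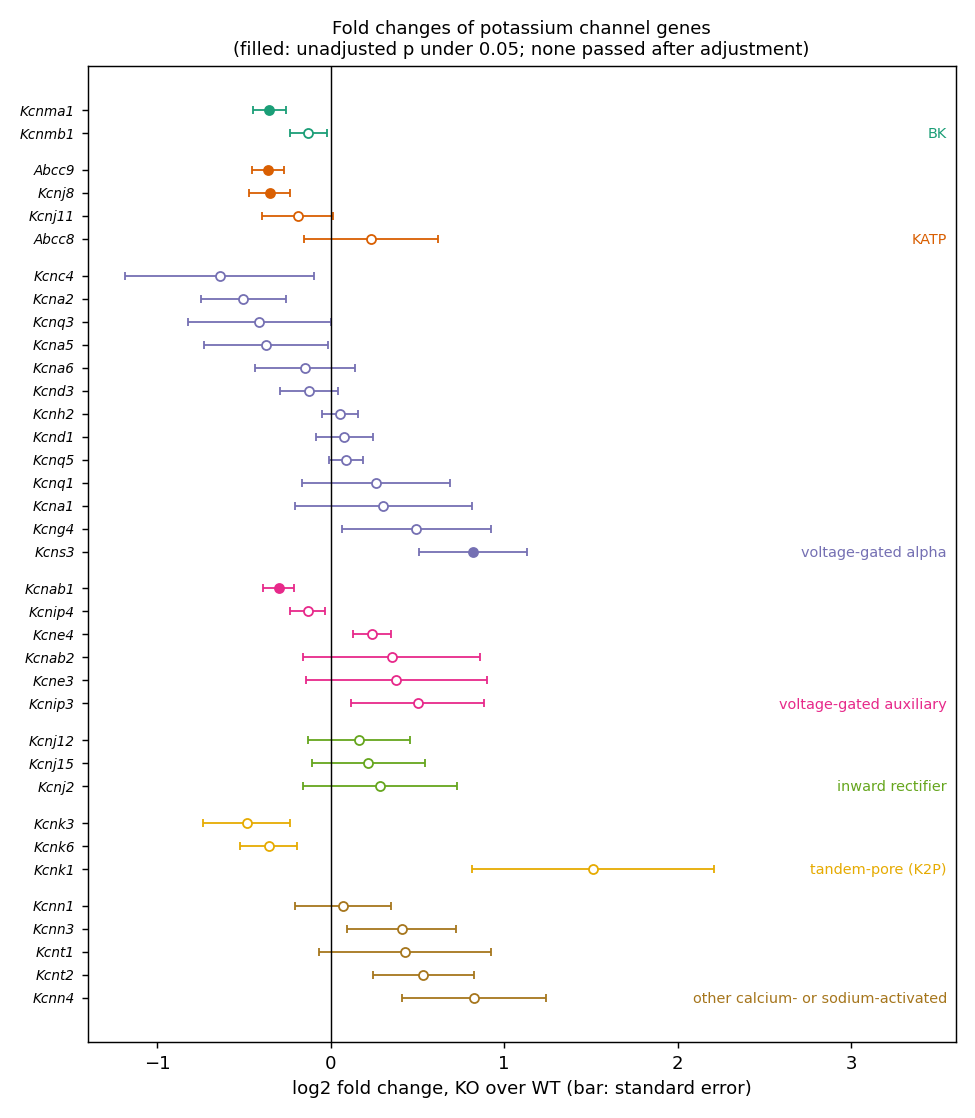
log2 fold change (KO over WT) of 36 of the 38 tested members by class, with standard errors; filled points have an unadjusted p under 0.05. Abcc9, Kcnma1, Kcnab1 and Kcnj8 lie between -0.36 and -0.30 with short error bars, and Kcns3 lies at 0.82.

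Kcnc4, which encodes the rapidly inactivating Kv3.4 channel, showed a single library apart. It read 27.6, 40.4 and 40.7 CPM in WT (in replicate order) and 5.16, 34.4 and 29.98 CPM in KO (same order). KO replicates 2 and 3 lay within the WT range, and the log2 fold change was -0.64 ± 0.544 (adjusted p = 0.595 in edgeR) and -0.17 without KO replicate 1. It was also -0.97 in limma-voom and -1.03 without KO replicate 2.

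The tandem-pore channel Kcnk1 (TWIK1) was high in the same library. Its values were 1.66, 1.75 and 1.41 CPM in WT and 10.4, 1.91 and 1.6 CPM in KO replicates 1, 2 and 3. The log2 fold change was 1.51 ± 0.698 (adjusted p = 0.365 in edgeR), but 0.13 without KO replicate 1, 0.92 in limma-voom and 1.06 in the blocked fit. Kcnk2 (TREK1, a stretch-sensitive channel) held 11, 5 and 5 counts per WT library, against 32, 5 and 3 in KO, and did not pass the filter. Kcnj3, a G protein-gated pore subunit of heart atrium and neurons, had 16 counts in KO replicate 1 and 0 in each of the other 5 libraries, and its partner Kcnj5 had 5 counts there and 0 or 1 elsewhere. The sodium-activated channel Kcnt2 (5.81, 4.89 and 5.01 CPM in WT, 11.2, 4.73 and 6.88 in KO) and Kcnj15 (40.8, 27.3 and 33.0 in WT, 61.9, 31.7 and 24.1 in KO) were also highest in KO replicate 1. Without it Kcnt2 had a log2 fold change of 0.15 in place of 0.53, and Kcnj15 -0.27 in place of 0.22. Kcnj15 was also 0.09 without WT replicate 2 and 0.11 in limma-voom.

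Some markers of heart muscle stood apart in that library as well, and others did not. Of the others, Ryr2 measured 81.4 CPM in KO replicate 1, inside its WT range of 54.4 to 93.1 CPM. Pln and Myh7 were highest in KO replicate 3. The marker Myh6, a cardiac myosin heavy chain, measured 0.37 to 1.63 CPM in WT and 13.4, 3.06 and 0.43 CPM in KO replicates 1, 2 and 3, and Myl7, the atrial myosin light chain, held 0 to 14 counts per WT library against 98, 15 and 0 in KO. The 12 heart markers summed to between 98.3 and 129 CPM in WT and to 187, 123 and 120 CPM in KO. Ryr2 was the most abundant of them in each library, at 81.4, 78.2 and 69.5 CPM in KO, and weighs heavily in these sums. A sum without Ryr2 was not made. Actc1, Tnnt2 and Tnni3 were highest in KO replicate 1, at 13.8, 18.6 and 8.25 CPM, with overlapping groups. Myl4 measured 6.38 to 6.75 CPM in WT and 18.1, 9.03 and 7.96 CPM in KO. For Myl4 and Myh7 the groups did not overlap. Of 9 tested members 8 lay above 0. Sln, the calcium pump regulator sarcolipin, had 69 counts in KO replicate 1 and 0 to 3 in the other libraries. Nppa had 0 counts outside KO replicate 1, and Myl2 had 0 in 5 libraries. The 12 nerve and Schwann cell markers summed to between 254 and 279 CPM in WT and between 250 and 256 in KO, with 4 of 7 tested members above 0 and Th, Dbh and Snap25 at 0 or 1 count. Whether these differences bear on the channel genes that stood apart in KO replicate 1 was not tested.

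**Figure D5:**
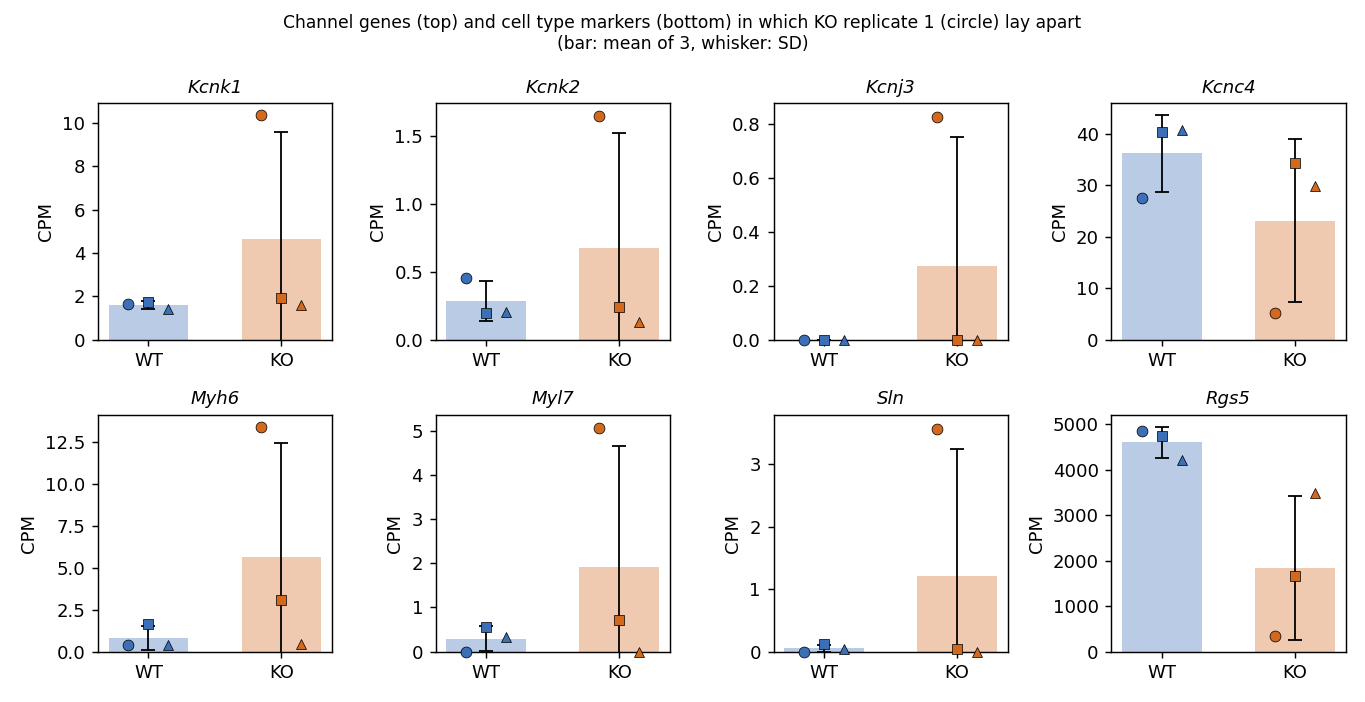
CPM of 4 channel genes (top) and 4 marker genes (bottom) in WT (blue) and KO (orange); bars are means of 3 libraries, whiskers the SD, and the circle is replicate 1. Kcnk1, Kcnk2, Kcnj3, Myh6, Myl7 and Sln were highest, and Kcnc4 and Rgs5 lowest, in KO replicate 1.

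Among the other tandem-pore channels, Kcnk6 (TWIK2) measured 8.09, 8.10 and 8.24 CPM in WT and 4.95, 6.64 and 7.44 CPM in KO replicates 1, 2 and 3. The groups did not overlap, and the log2 fold change was -0.36 ± 0.162 (adjusted p = 0.359 in edgeR), -0.21 without KO replicate 1. Kcnk3 (TASK1), an acid-sensitive leak channel, measured 10.1, 6.60 and 5.09 CPM in WT and 5.21, 4.63 and 5.71 in KO. WT replicate 1 was the highest, and the log2 fold change was -0.48 ± 0.250, and -0.17 without that library. Of 14 tandem-pore members 3 were tested and 5 were at 0 in every library.

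The inward rectifiers outside the KATP pair were mostly too low to test. Of 13 members 3 were tested, all above 0 without passing, and 3 had 0 counts throughout. Kcnj12 (Kir2.2) stood at 3.49 ± 1.41 CPM in WT against 3.92 ± 0.342 in KO (log2 fold change 0.17 ± 0.293, and -0.09 without WT replicate 3). Kcnj2, which encodes the Kir2.1 pore of strong inward rectification in endothelium and small arteries, measured only 0.476 ± 0.130 and 0.581 ± 0.255 CPM (0.29 ± 0.444), and its fold change was 0.068 without KO replicate 3, 0.089 without WT replicate 3 and 0.61 without KO replicate 2.

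The small- and intermediate-conductance calcium-activated channels and their sodium-activated relatives were low, and all 5 tested had fold changes above 0 without passing. Kcnn4, the intermediate-conductance channel of endothelium and blood cells, measured 1.54, 0.95 and 1.70 CPM in WT and 1.44, 1.96 and 3.98 CPM in KO replicates 1, 2 and 3 (log2 fold change 0.83 ± 0.416, adjusted p = 0.388 in edgeR). Kcnn3, the small-conductance channel SK3 of endothelium, measured 5.98, 2.98 and 4.18 CPM in WT and 4.33, 5.02 and 8.05 CPM in KO (0.41 ± 0.314). Both were highest in KO replicate 3, which also had the highest sum of endothelial markers (736 CPM, against 378 to 499 in WT and 466 and 430 in KO replicates 1 and 2). That list had 8 of 10 tested members above 0. The macrophage markers, with 9 of 10 above 0, summed to between 51.2 and 87.9 CPM in WT and to 101, 47.1 and 122 CPM in KO, and the fat cell markers, also with 9 of 10 above 0, to between 129 and 235 CPM in WT and to 176, 132 and 275 CPM in KO, each highest in KO replicate 3. The part of these lists in the values of Kcnn3 and Kcnn4 was not tested. Without KO replicate 3 the log2 fold change was 0.29 for Kcnn4 and 0.10 for Kcnn3. Kcnn1 measured 3.99 ± 0.899 and 4.21 ± 1.41 CPM, with a sign that turned without KO replicate 1 (-0.22) or WT replicate 1 (-0.06). Kcnt1, a sodium-activated channel, measured 1.27 ± 0.765 and 1.72 ± 0.581 CPM (0.43 ± 0.495, and 0.06 without WT replicate 3).

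Proteins that act on or oppose these channels were counted from lists chosen for this work. Of 25 genes of the kinase and receptor pathways acting on KATP and BK channels, all were tested, 18 lay below 0, the median log2 fold change was -0.17, and none passed in edgeR. An unadjusted p under 0.05 was reached by 6 of the 25 in the lower direction, against 7.76% of all tested rows, and by 3 in the higher, against 6.8%. Calcrl, the receptor for the vasodilator peptides CGRP and adrenomedullin, measured 96.5 ± 7.55 and 70.2 ± 9.81 CPM (-0.46 ± 0.107, adjusted p = 0.261 in edgeR and 0.0210 in DESeq2). The protein kinase A subunits Prkacb (-0.23 ± 0.071) and Prkar1a (-0.22 ± 0.069) were lower in every KO library. Of 16 other channel partners 7 were tested, 5 below 0, with a median of -0.11, and the syntrophin Sntb2 measured 95.7 ± 11.3 and 77.0 ± 3.21 CPM (-0.31 ± 0.090, adjusted p = 0.270 in edgeR).

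The sodium-potassium pump and the potassium cotransporters had 12 of 14 genes tested, 8 above 0 and a median of 0.04. Within them Fxyd5, a regulator of the pump, measured 28.7 ± 5.97 and 37.5 ± 4.19 CPM (0.38 ± 0.152, adjusted p = 0.319 in edgeR). Of 18 calcium channel genes 17 were tested, 9 below 0, with a median of -0.02. Cacna2d1, the alpha2-delta subunit of voltage-gated calcium channels, measured 220 ± 16.7 and 181 ± 15.2 CPM (-0.28 ± 0.089), and Cacnb3 40.2 ± 2.18 and 45.8 ± 1.43 CPM (0.19 ± 0.065), and neither passed in edgeR (adjusted p = 0.277 and 0.279).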

How the data were processed

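Messenger RNA was measured in 6 libraries, 3 WT and 3 KO, grouped by the titles in the labels. The authors deposited raw read counts per gene, and the submitters' processing notes name Trimmomatic 0.36, STAR 2.6.0c, featureCounts of Subread 1.6.1 and GRCm38. The libraries were strand-specific per the labels. The annotation, the handling of strand in counting and that of multi-mapping reads were not given in the sources used here. Counts of overlapping genes are therefore uncertain.

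Counts were tested with edgeR 4.0.16 in R 4.3.3 (quasi-likelihood, TMM, filterByExpr with minimum count 10 and total 15, genotype only). Benjamini-Hochberg adjustment covered all 14145 tested rows, with a threshold of 0.05. Standard errors derive from the fold change and F statistic. Lengths are the union of GENCODE M21 exons, which all 94 members had. Ratios of subunits were compared with exact permutation tests. The named members were 9 KATP and BK genes, up to 5 tested members per class by level, and every tested member with an unadjusted p under 0.05. Some genes these rules cover are not reported here. Further members are named to account for the class, chosen after their values were seen. Members and lists were chosen with earlier results of these data known. Alternatives were DESeq2 1.42.0 (test or size factors), limma-voom (limma 3.58.1), other filters, mitochondrial genes left out, a fit blocked by replicate number, and fits without each library in turn. Transcript length was added after seeing the data. The tests were checked on simulated counts.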

Additional observations from a re-analysis of the deposited data

How the results depend on the processing

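The count of members called was 0 in edgeR under each normalization, filter, block and left-out library tried, and 0 in limma-voom. Over all rows edgeR called 1, but 9 without the filter, 3 without KO replicate 2, 0 without WT replicate 1 and 0 in the blocked fit, and DESeq2 called 199. Of the members DESeq2 called 1, Abcc9 (log2 fold change -0.37, adjusted p = 0.0201). The median over the tested members was 0.075, lay between -0.0071 and 0.114 with single libraries left out, and was -0.119 over the 28 members with a mean count of at least 50. A value without an adjusted p, as DESeq2 gave for some members, was taken as not passing. Of 332 alternative values of 26 named members, 323 kept their sign without passing the threshold, 1 passed it and 8 turned sign. Those 8 each left out 1 library, and the genes' values over the left-out libraries ranged for Kcnd3 from -0.35 (KO replicate 2) to 0.0039 (KO replicate 1), for Kcnj15 from -0.27 (KO replicate 1) to 0.47, for Kcnn1 from -0.22 (KO replicate 1; -0.063 for WT replicate 1) to 0.26, for Kcnh2 from -0.051 (KO replicate 2) to 0.15, for Abcc8 from -0.14 (KO replicate 3) to 0.49, for Kcne3 from -0.31 (KO replicate 3) to 0.67 and for Kcnj12 from -0.088 (WT replicate 3) to 0.50. The log2 difference of the Kcnmb1 to Kcnma1 ratio lay between 0.146 and 0.297 and that of Kcnj8 to Abcc9 between -0.173 and 0.216 without single libraries. With the replicate number as a block, 0 members passed, the smallest adjusted p was 0.301 (Kcnma1), and the ratios differed by 0.221 and 0.003. Same-numbered libraries correlated in their deviations at 0.107, 0.134 and -0.056 for numbers 1, 2 and 3, so the numbers were not taken as pairs. The cause of these changes was not tested. Depth limits the 41 members with 1 to 70 counts in all.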
